A study of Mus musculus with 22 samples.

Results

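The 10 genes described here serve the synthesis and desaturation of fatty acids: Acly, Acaca, Fasn, Me1, Elovl6, Scd1, Scd2, Fads1 and Fads2, with the transcription factor Srebf1. They are 10 of the 47311 genes in the deposited data. The list was chosen by pathway, around the measured KO against WT difference of Scd1 in CMPs, which had been noted as strongly higher, so values of the CMP contrast are given below as a description, without a test. RNA was sequenced from bone marrow populations of WT mice (Arid1a f/f;Mx1-Cre- littermates) and KO mice (Arid1a f/f;Mx1-Cre+), all on a C57BL/6 background. WT and KO mice alike had received 5 doses of 300 µg poly(I:C) at 8 to 14 weeks of age, which switches on the interferon-inducible Mx1 promoter that drives Cre, and cells were sorted 4 weeks later. Cre removes exon 9 of Arid1a, a subunit of the SWI/SNF chromatin remodeling complex, and Mx1-Cre also acts in cells other than the sorted ones. LT-HSCs (CD34-Flt3- cells of the Lin-Sca1+Kit+ fraction) came from 2 WT and 2 KO mice. CMPs (common myeloid progenitors), GMPs (granulocyte-macrophage progenitors) and MEPs (megakaryocyte-erythroid progenitors) came from 3 WT mice (300, 305 and 309) and 3 KO mice (301, 304 and 308), each of which gave all 3 populations.

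In de novo synthesis, ATP citrate lyase (Acly) splits citrate to cytosolic acetyl-CoA, acetyl-CoA carboxylase (Acaca) makes malonyl-CoA from it, and fatty acid synthase (Fasn) joins these units to palmitate with NADPH, part of which malic enzyme (Me1) supplies. Elovl6 lengthens palmitate, the stearoyl-CoA desaturases Scd1 and Scd2 place the first double bond to give monounsaturated fatty acids, and Fads1 and Fads2 desaturate the essential fatty acids of the diet. SREBP-1, the product of Srebf1, is held in the membrane of the endoplasmic reticulum and, once cut free, activates most of these genes in liver and fat.

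The libraries held 40804031 to 65930737 estimated counts on genes. Arid1a itself fell in KO CMPs from 401 ± 13.0 to 345 ± 16.8 CPM (SD, n = 3 per group), in GMPs from 360.5 ± 58.3 to 276 ± 20.7 CPM and in MEPs from 314 ± 8.29 to 284 ± 13.7 CPM, with edgeR FDRs of 0.0284, 0.0246 and 0.0836. In LT-HSCs it stood at 115 ± 5.95 CPM in WT and 52.3 ± 1.91 CPM in KO (SD, n = 2 per group, edgeR FDR = 0.421). These sums cover the whole gene, so they do not check the loss of exon 9. The summed level of 16 erythroid markers was 7960 to 8598 CPM in WT MEPs and 241 to 293 CPM in WT GMPs, and that of 11 neutrophil precursor markers was 32454 to 36711 CPM in WT GMPs and 36.0 to 105 CPM in WT MEPs. The WT LT-HSC library S245 stood apart, with at least 10 counts on 27191 genes, the most of the 22 libraries. CPM are counts relative to a library size scaled by TMM, once over the 18 precursor libraries and separately over the 4 LT-HSC libraries, which were prepared with another kit, so levels were not compared between these sets. Markers of other lineages stayed low in WT MEPs, where 8 macrophage markers summed to 15.6 to 23.1 CPM, 7 B cell markers to 1.41 to 7.08 CPM and 5 T cell markers to 0.996 to 1.39 CPM. In KO MEPs these sums were 16.5 to 23.8, 0.864 to 1.83 and 1.03 to 1.31 CPM, while 8 megakaryocyte markers summed to 124 to 144 CPM against 49.3 to 78.7 CPM in WT. The 8 genes listed as gate markers summed to 397 to 623 CPM in WT MEPs and 483 to 548 CPM in KO MEPs. Most of this was Kit, with means of 523 CPM in WT and 493 CPM in KO. In KO MEPs Slamf1 was called higher (mean 2.29 CPM in WT and 11.7 CPM in KO). Fcgr3 (0.615 and 0.133 CPM) passed the filter on low counts through its WT libraries, so its call as lower is not read. It is still counted in the share given next. The share of the 8 called was 25.0% in MEPs, 50.0% in CMPs and 62.5% in GMPs. Over all genes tested it was 29.4%, 23.4% and 33.9%.

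Upstream sequence is shown for 3 members that bear on the results below: Srebf1 and Acly, whose KO effect differed between MEPs and GMPs, and Fasn, for which no change was called in either. Each line gives the 250 bases before a RefSeq start (GRCm38.p6), read 5′ to 3′ on the strand of the gene, and none of these bases lies in an annotated exon of the gene. Capitals mark the CCAAT box (CCAAT) and the GC box (GGGCGG), read on both strands, where overlapping matches count separately.
Srebf1, chr11:60220628-60220877 (- strand): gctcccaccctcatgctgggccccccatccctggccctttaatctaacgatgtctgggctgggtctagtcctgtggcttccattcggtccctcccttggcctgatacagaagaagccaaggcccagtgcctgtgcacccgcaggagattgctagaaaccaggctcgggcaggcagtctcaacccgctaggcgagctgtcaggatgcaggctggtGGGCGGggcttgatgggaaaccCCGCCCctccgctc
Srebf1, chr11:60210472-60210721 (- strand): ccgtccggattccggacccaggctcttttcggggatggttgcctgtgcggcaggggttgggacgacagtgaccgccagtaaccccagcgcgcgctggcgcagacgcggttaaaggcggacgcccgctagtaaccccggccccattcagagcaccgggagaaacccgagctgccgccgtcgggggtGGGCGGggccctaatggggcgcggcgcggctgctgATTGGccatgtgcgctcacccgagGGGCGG
Acly, chr11:100528001-100528250 (- strand): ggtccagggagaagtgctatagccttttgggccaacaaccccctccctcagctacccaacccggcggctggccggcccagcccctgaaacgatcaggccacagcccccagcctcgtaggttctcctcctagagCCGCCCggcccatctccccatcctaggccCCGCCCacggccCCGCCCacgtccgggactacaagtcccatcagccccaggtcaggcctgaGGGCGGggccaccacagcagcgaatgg
Fasn, chr11:120824548-120824797 (- strand): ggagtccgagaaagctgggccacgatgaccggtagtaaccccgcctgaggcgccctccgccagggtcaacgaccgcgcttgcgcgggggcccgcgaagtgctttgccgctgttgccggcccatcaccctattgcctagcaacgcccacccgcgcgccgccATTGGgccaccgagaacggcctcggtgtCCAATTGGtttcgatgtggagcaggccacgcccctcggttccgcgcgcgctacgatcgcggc

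The Acly window held 4 GC boxes, the Fasn window 3 CCAAT boxes, and the Srebf1 windows shown 2 GC boxes each, the second of them with 1 CCAAT box as well. Another Srebf1 window (chr11:60222582-60222831), not printed here, held 0 GC boxes and 1 CCAAT box. Of 32851 promoters with a window of this length, 32.7% held a GC box and 33.8% a CCAAT box. The sterol regulatory element TCACNCCAC (1.1% of promoters) and the E-box CACGTG (6.0%) did not occur in the windows of the 7 members that the table covers (Elovl6, Me1, Srebf1, Acaca, Acly, Fasn and Fads2). Of the 250 bases of a window, 243 for Fads2, 39 for 1 Me1 window and 31 for Elovl6 lie in an annotated exon of the gene. The Fads2 window thus says little about sequence upstream of that gene. A match is a description of the letters and not a bound site. Scd1, Scd2 and Fads1 were not matched.

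Across WT precursors the desaturases Scd1 and Fads2 had the widest range of mean levels between populations. Levels between genes are compared in TPM, which is scaled for transcript length. In WT MEPs Fads2 (117 ± 3.48 TPM), Srebf1 (111 ± 4.16 TPM) and Acly (100.4 ± 2.94 TPM) stood highest, and in WT GMPs Scd2 (116 ± 7.95 TPM) and Acly (116 ± 9.71 TPM) did (SD, n = 3 per group). Scd1 and Me1 were the members with the lowest level in each WT precursor population: Scd1 had 3.45 ± 2.17 TPM in MEPs, 0.240 ± 0.166 TPM in CMPs and 0.0235 ± 0.00662 TPM in GMPs, and Me1 stayed between 0.0409 and 0.523 TPM. The TPM of Srebf1, Fasn and Me1 include short transcript models that encode no protein, and that of Fads2 rests on a deposited transcript model of 1508 bases, against 3150 bases in the GENCODE vM21 annotation.

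**Figure D1:**
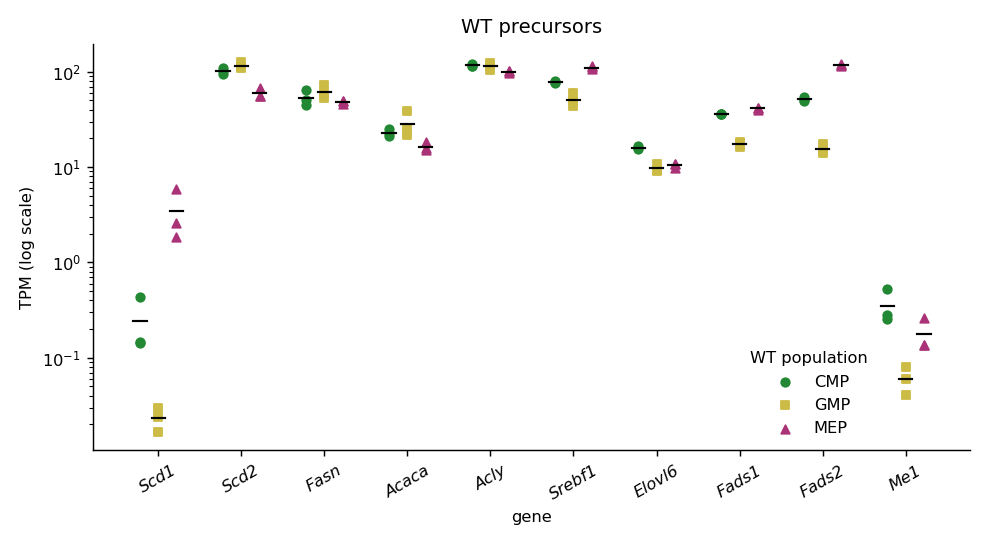
Level of each of the 10 genes in WT CMPs, GMPs and MEPs, in TPM on a log axis. Points are the 3 mice and bars their mean: Scd1 and Fads2 have the widest range of group means, with Scd1 at 3.45 TPM in MEPs and 0.0235 TPM in GMPs, while the group means of Acly stayed between 100.4 and 117 TPM.

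In CPM, Scd1 was 166 times higher in WT MEPs than in WT GMPs by the ratio of means, a log2 difference of -7.22 for GMPs less MEPs. It was too low in GMPs to pass the filter on low counts there and entered the fit through the other populations, so this value is a description with no test. In the 3 WT mice it had 7.12, 22.8 and 9.94 CPM in MEPs (mice 300, 305 and 309) and 0.101, 0.0813 and 0.0581 CPM in GMPs. The GMP values stand for 3.06 to 6.05 estimated counts a library, so the size of the ratio rests on few reads, although the groups lay far apart. It moved to -7.82 without mouse 300 and to -6.59 without mouse 305. Fads2, the rate-limiting desaturase of the polyunsaturated pathway, was 8.52 times higher in WT MEPs than in WT GMPs (log2 difference -3.08, SE 0.09, FDR = 1.41e-08), with 129, 133 and 125 CPM in MEPs and 16.9, 13.5 and 15.1 CPM in GMPs. Fads1 (log2 difference -1.40, SE 0.05, FDR = 6.54e-08) and Srebf1 (-1.11, SE 0.05, FDR = 8.61e-08) were lower in GMPs too. Scd2 ran the other way, at 243 to 290 CPM in WT MEPs and 423 to 485 CPM in WT GMPs (log2 difference 0.82, SE 0.07, FDR = 5.35e-06).

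Between these populations 9 of the 10 members were called at an FDR of 0.1, against a background of 72.6% of all 17476 genes tested, so the number of calls does not set the members apart. Scd1 and Me1 are among them, though both passed the filter only through the populations where they were higher, and their calls are not read. Without them, 7 of the other 8 members were called. Of all 9 calls, 3 were higher in GMPs (background 36.5%) and 6 lower (background 36.1%), and 9 had groups that did not overlap (background 69.5%). Fasn (log2 difference 0.32, SE 0.08, FDR = 0.00736) and Acaca (0.49, SE 0.10, FDR = 0.00173) were higher in GMPs, and Elovl6 (-0.31, SE 0.08, FDR = 0.00690) was lower. Me1 had 0.0969 to 0.183 CPM in GMPs and 0.223 to 0.564 CPM in MEPs. Acly, at 307 to 348 CPM in GMPs and 309 to 323 CPM in MEPs, was not called (log2 difference 0.08, SE 0.05, FDR = 0.239).

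WT CMPs lay between GMPs and MEPs for Scd1 (0.440, 1.34 and 0.447 CPM), Srebf1 (118 to 123 CPM), Fads1 (77.5 to 79.3 CPM) and Fads2 (43.7 to 48.4 CPM). These libraries are also the WT side of the CMP contrast that drew attention to Scd1, so the differences of Scd1 from CMPs are given without a test. In MEPs against CMPs 6 of 10 members were called (background 72.4%), 4 higher (background 34.4%) and 2 lower (background 38.0%), and 7 had groups that did not overlap (background 70.8%). Scd1 stood higher in MEPs by a log2 difference of 4.16. It is counted in the 6 called, the 4 higher and the 7 without overlap, and is not read in them. Without Scd1 the calls left were those of the members named next. Of the others, Fads2 (log2 difference 1.51, SE 0.08, FDR = 7.19e-07), Srebf1 (0.83, SE 0.05, FDR = 6.58e-07) and Fads1 (0.51, SE 0.05, FDR = 3.26e-05) were higher, and Scd2 (-0.47, SE 0.07, FDR = 0.000198) and Elovl6 (-0.29, SE 0.08, FDR = 0.00959) were lower. In GMPs against CMPs all 10 members were called (background 45.3%), 4 higher (background 21.0%) and 6 lower (background 24.2%), and all 10 had groups that did not overlap (background 48.1%). Scd1 and Me1, too low in GMPs to pass the filter there, are among the 6 lower and are not read, with log2 differences of -3.06 and -1.80. Without them the calls left were Scd2, Fasn, Acaca and Acly, higher in GMPs, and Srebf1, Elovl6, Fads1 and Fads2, lower. Acly was called at a log2 difference of 0.14 (SE 0.05, FDR = 0.0760) that was lost without the replicate block (FDR = 0.106), with no filter on low counts (FDR = 0.174) and with an offset for transcript length (FDR = 0.114). Acly was also lost without mouse 300 (FDR = 0.304) or mouse 309 (FDR = 0.162).

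In KO CMPs, Scd1 had 18.97 CPM in mouse 301, 32.2 CPM in mouse 304 and 5.66 CPM in mouse 308, against 0.440, 1.34 and 0.447 CPM in WT mice 300, 305 and 309. The lowest KO library was above the highest WT library, and the mean was 25.5 times higher (log2 fold change 4.65, SE 0.68). This is the contrast that chose Scd1, and nothing is read from its size. Single omissions gave log2 fold changes from 4.03 without KO mouse 304 to 5.40 without WT mouse 305. KO CMPs held more RNA of erythroid genes: the 16 erythroid markers summed to 2212 to 2632 CPM in KO CMPs and 1227 to 1347 CPM in WT CMPs, and 15 of the 16 were called higher (93.8% called, against 23.4% of all genes). Within the KO CMPs the order of the mice was the same for both, with 2632 CPM of erythroid markers in mouse 304, 2498 CPM in mouse 301 and 2212 CPM in mouse 308. In KO MEPs the order was reversed. Mouse 304 had the most Scd1 there (130 CPM) and the lowest erythroid sum (7648 CPM). Mouse 308 had the least Scd1 there (93.2 CPM) and the highest erythroid sum (8270 CPM). The part of these markers in the Scd1 values was not tested, and in such bulk samples a different share of cells of a type and a different RNA level per cell cannot be told apart. Neutrophil precursor markers summed to 1547 to 2453 CPM in KO CMPs and 4139 to 5020 CPM in WT CMPs.

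In CMPs the log2 fold changes of the other members ran from -1.30 to 0.30. As a description from which nothing is read, since this contrast was used for the choice, 4 of 10 members were past the FDR of 0.1 (background 23.4%) and the same 4 had groups that did not overlap (background 33.5%). Beside Scd1 these were Elovl6, with 53.0, 53.4 and 52.5 CPM in WT and 64.8, 57.4 and 73.9 CPM in KO (log2 fold change 0.30, SE 0.09), Fads1, with 77.5, 79.3 and 78.5 CPM in WT and 62.5, 64.3 and 62.2 CPM in KO (-0.32, SE 0.05), and Me1, with 0.660, 0.358 and 0.468 CPM in WT and 0.137, 0.166 and 0.301 CPM in KO (-1.30, SE 0.41). Elovl6 was no longer past the threshold with an offset for transcript length or without WT mouse 300, KO mouse 301, KO mouse 308 or WT mouse 309. Me1 was no longer past it with DESeq2 or without WT mouse 300, KO mouse 301, KO mouse 304 or WT mouse 309. The remaining 6 lay between -0.10 for Fasn and 0.09 for Scd2. Scd2, the close relative of Scd1, had 332 to 386 CPM in WT CMPs and 363 to 399 CPM in KO CMPs.

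**Figure D2:**
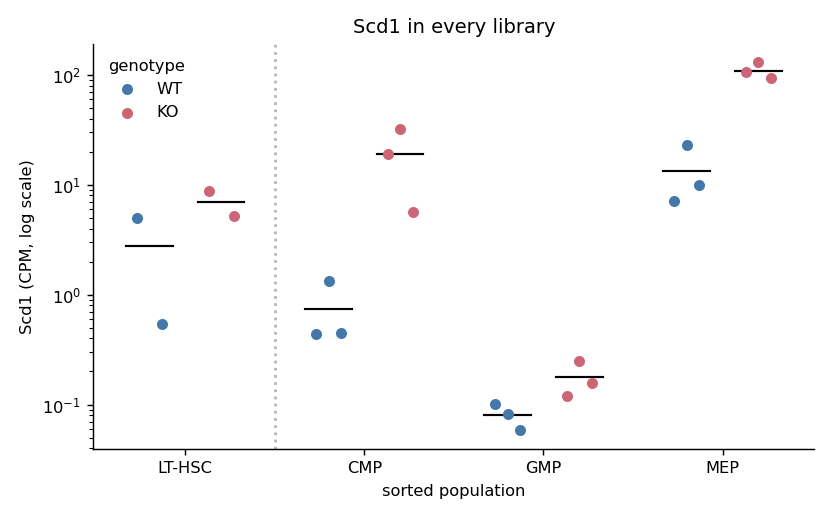
Scd1 in each of the 22 libraries, in CPM on a log axis, by population and genotype, with bars at the group means. The dotted line parts LT-HSCs, which were scaled separately, and the KO libraries lie above the WT libraries in CMPs (5.66 CPM or more against 1.34 CPM or less) and MEPs (93.2 CPM or more against 22.8 CPM or less).

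In MEPs, which the choice of members did not use, Scd1 rose from 7.12, 22.8 and 9.94 CPM in WT mice 300, 305 and 309 to 106, 130 and 93.2 CPM in KO mice 301, 304 and 308. The groups did not overlap, and KO MEPs held the highest Scd1 levels of the 18 precursor libraries. The mean was 8.27 times higher (log2 fold change 3.06, SE 0.38, FDR = 0.00103). Leaving out WT mouse 305, which had the highest WT level, raised the log2 fold change to 3.69 (FDR = 1.67e-05), and the other single omissions gave 2.74 to 3.16. These are the same mice as in the CMP contrast, so the MEP value comes from other libraries but not other animals. Of the 16 erythroid markers, 12 were called higher and 1 lower in KO MEPs (81.2% called, against 29.4% of all genes). Their log2 fold changes ran from -1.09 to 3.12. Slc4a1, the band 3 anion exchanger, stood at 3.12, Alas2, which starts heme synthesis, at 2.97 and the globin gene Hbb-bs at 2.86. The summed level of the 16 markers did not rise with Scd1, at 7648 to 8270 CPM in KO MEPs and 7960 to 8598 CPM in WT MEPs. The part of these genes in the Scd1 change was not tested. Markers of adipocytes, the textbook Scd1 expressers, summed to 3.88 to 4.22 CPM in KO MEPs and 5.03 to 6.41 CPM in WT MEPs, and 10 of 11 were under 1 CPM in every KO MEP library.

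In GMPs Scd1 stayed near 0, at 0.101, 0.0813 and 0.0581 CPM in WT and 0.1204, 0.251 and 0.158 CPM in KO, which is 3.06 to 11.6 estimated counts a library. It did not pass the filter on low counts there and was not tested. The joint fit of the populations, which it entered through CMPs and MEPs, is not read for Scd1, nor for Me1.

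Scd1 (ENSMUSG00000037071) lies on chromosome 19 from 44394455 to 44407879 on the minus strand in GRCm38, 87.6 kb from Scd2 (44293674 to 44306864, plus strand) and 47.7 kb from Scd4. No change was called for these paralogs in MEPs. Scd2 had 246, 243 and 290 CPM in WT MEPs and 297, 285 and 222 CPM in KO MEPs (log2 fold change 0.04, SE 0.12, FDR = 0.842). Scd4 had a mean of 0.438 CPM in WT MEPs and 0.507 CPM in KO MEPs (0.19, FDR = 0.755), and Scd3 of 0.470 and 0.596 CPM. The main Scd1 transcript shares 252 of its 4794 distinct 31-base words with that of Scd2 (5.26%) and 284 with that of Scd3 (5.92%), so a small share of fragments could be split between them.

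Over the 18 precursor libraries, the 5 genes of 13765 whose log2(CPM + 1) followed Scd1 most closely by Pearson's r were Dmtn (r = 0.989), Trim10 (r = 0.982), Tspan15 (r = 0.981), Pla2g4c (r = 0.977) and Dnaja4 (r = 0.976). The libraries share 6 mice and 3 populations, so these values describe a common pattern and no test is attached. Among the 18 are the CMP libraries of the contrast that drew attention to Scd1. Dmtn, which encodes the red cell membrane skeleton protein dematin, had a mean of 1.35 CPM in WT CMPs, 13.7 CPM in KO CMPs, 20.8 CPM in WT MEPs, 90.7 CPM in KO MEPs and 0.306 CPM or less in GMPs. Trim10, known for its part in terminal erythroid differentiation, had 0.785, 8.81, 16.9 and 54.2 CPM in the same 4 groups of CMPs and MEPs. In these groups Tspan15 had 0.450, 6.13, 3.75 and 44.6 CPM, and Pla2g4c 3.10, 18.7, 27.2 and 119 CPM. Dnaja4 had 3.85, 11.2, 13.0 and 38.2 CPM.

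Apart from Scd1, the members that changed in KO MEPs fell. In total, 8 of the 10 members were called (background 29.4% of all 15777 genes tested), 1 higher and 7 lower (background 15.4%), and the same 8 had groups that did not overlap (background 38.2%). Me1 passed the filter through its WT libraries, so its call is not read. It is still counted in the 7 lower, the 8 without overlap and the median given next. Without Me1, 7 of the other 9 members were called. The median of the members was -0.20, against -0.0020 over all genes tested. Srebf1 fell from 208, 216 and 222 CPM to 171, 170.3 and 169 CPM (log2 fold change -0.34, SE 0.05, FDR = 0.00184). Each KO library was below each WT library, and the spread within a group was small beside the gap. Fads2 fell from 129, 133 and 125 CPM to 98.7, 82.9 and 98.6 CPM (-0.47, SE 0.07, FDR = 0.00334), and Fads1 from 109, 114 and 112 CPM to 89.3, 89.4 and 94.6 CPM (-0.30, SE 0.05, FDR = 0.00403). Acly fell from 323, 309 and 316 CPM to 276, 268 and 279.7 CPM (-0.20, SE 0.04, FDR = 0.0115).

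The calls of Acaca and Elovl6 in MEPs were less firm. Acaca (83.0 to 92.0 CPM in WT and 73.2 to 79.1 CPM in KO, log2 fold change -0.20, SE 0.06, FDR = 0.0487) was lost without KO mouse 304 (FDR = 0.141) or 308 (FDR = 0.1201), with an offset for transcript length (-0.07, FDR = 0.678) and in the fit of all 18 libraries (FDR = 0.207). Elovl6 (42.2 to 45.6 CPM in WT and 37.7 to 40.4 CPM in KO, -0.15, SE 0.06, FDR = 0.0991) kept its call under 2 of 12 alternatives. Me1, whose call is not read, rests on 9 to 30 estimated counts a library in WT and 3 to 9 in KO (log2 fold change -1.62). It was no longer past the threshold without WT mouse 300 (-1.06), KO mouse 304, KO mouse 308 or WT mouse 309, or with DESeq2. Fasn, the synthase itself, had 230.0, 244.3 and 230.1 CPM in WT MEPs and 235, 240.1 and 219 CPM in KO MEPs, overlapping groups with a log2 fold change of -0.02 (SE 0.05, FDR = 0.791).

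**Figure D3:**
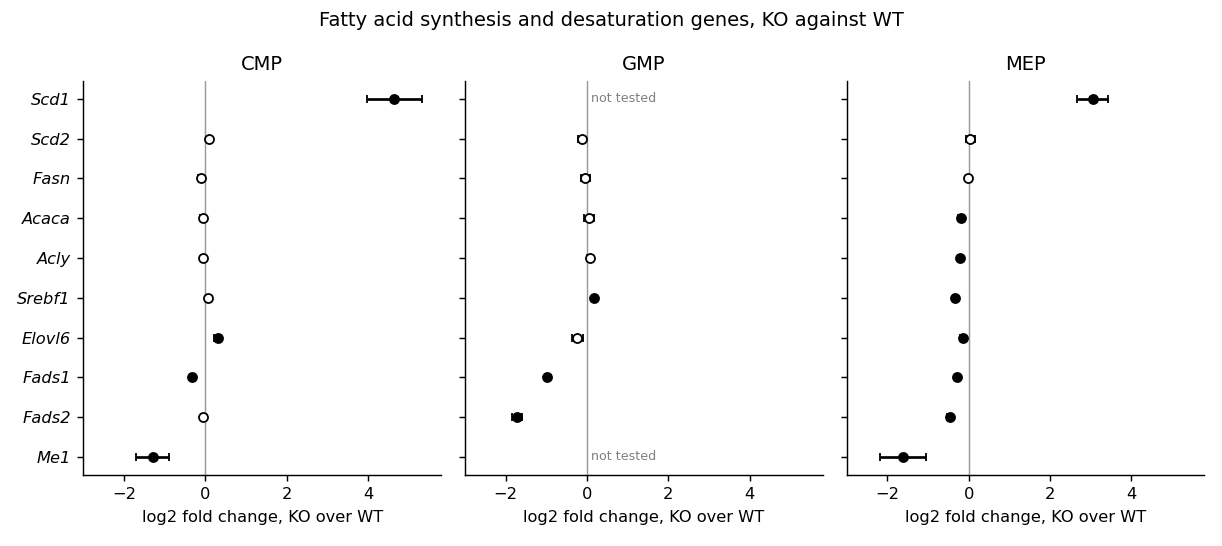
Log2 fold change of KO over WT for the 10 genes in CMPs, GMPs and MEPs, with bars of 1 SE. Filled points pass an FDR of 0.1 (in CMPs a description, as this contrast was used in the choice): Scd1 stands alone on the right in CMPs (4.65) and MEPs (3.06), Fads1 (-0.97) and Fads2 (-1.73) on the left in GMPs, and most others lie near 0.

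In KO GMPs Fads1 and Fads2, the desaturases of the polyunsaturated branch, fell. Of the 8 members tested 3 were called (background 33.9% of all 16383 genes tested), 1 higher (background 17.5%) and 2 lower (background 16.3%), and the same 3 had groups that did not overlap (background 42.5%). Fads2 (ENSMUSG00000024665) fell from 16.9, 13.5 and 15.1 CPM in WT mice 300, 305 and 309 to 4.54, 4.82 and 4.45 CPM in KO mice 301, 304 and 308. The KO libraries lay close together, and the WT mean was 3.29 times higher (log2 fold change -1.73, SE 0.12, FDR = 2.12e-05). Fads1 (ENSMUSG00000010663) fell from 43.7, 41.8 and 40.6 CPM to 22.5, 22.2 and 20.2 CPM, with a WT mean 1.95 times higher (-0.97, SE 0.07, FDR = 1.87e-05). Both calls held under the 12 alternatives, with log2 fold changes of -1.83 to -1.66 for Fads2 and -1.01 to -0.93 for Fads1. Srebf1 rose from 96.1, 101 and 100.5 CPM to 117, 111 and 109 CPM (0.17, SE 0.05, FDR = 0.0423), a call that was lost without WT mouse 300 (FDR = 0.123), KO mouse 301 (FDR = 0.153) or WT mouse 309 (FDR = 0.127) and with an offset for transcript length (0.27, FDR = 0.108).

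The other 5 members tested overlapped between WT and KO GMPs. The log2 fold changes were -0.05 (SE 0.11, FDR = 0.810) for Fasn, 0.04 (SE 0.12, FDR = 0.858) for Acaca, 0.07 (SE 0.07, FDR = 0.470) for Acly, -0.13 (SE 0.08, FDR = 0.323) for Scd2 and -0.24 (SE 0.14, FDR = 0.243) for Elovl6. Single omissions gave a call for Scd2 without KO mouse 301 (-0.23, FDR = 0.0942) and for Acaca without WT mouse 305 (0.20, FDR = 0.0842), and the length offset gave one for Elovl6 (-0.30, FDR = 0.0939). Me1, with 5 to 9 estimated counts a library in WT and 2 or fewer in KO, was not tested. Neutrophil precursor markers moved with these results: 8 of 11 were called higher in KO GMPs (background 17.5%) and 1 lower (background 16.3%), and they summed to 44917 to 51777 CPM in KO and 32454 to 36711 CPM in WT. Macrophage markers summed to 118 to 147 CPM in KO GMPs and 84.8 to 93.9 CPM in WT GMPs, but only 1 of the 8 was called higher (background 17.5%). That gene was Adgre1, with a mean of 97.3 CPM in KO and 9.37 CPM in WT. Another 3 of the 8, Vcam1, Cd68 and Cd163, were called lower (background 16.3%), and the median of the list was -0.55. The part of either list in the Fads1 and Fads2 values was not tested.

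The difference between the KO effects in MEPs and in GMPs was tested by fitting all 18 libraries of CMPs, GMPs and MEPs together, with a block for each mouse. Of the 10 members 4 were called (background 26.8% of all 18523 genes tested), 2 higher (background 12.2%) and 2 lower (background 14.6%). The fall of Fads2 was smaller in MEPs by 1.25 (SE 0.13, FDR = 1.31e-05) and that of Fads1 by 0.67 (SE 0.08, FDR = 4.20e-05). Srebf1 fell in MEPs and rose in GMPs, a difference of -0.52 (SE 0.06, FDR = 4.03e-05), and Acly differed by -0.29 (SE 0.07, FDR = 0.0130). These 4 calls held under each of the 11 alternatives run. Acaca (-0.26, SE 0.12, FDR = 0.148) was not called, and was called with median-of-ratios size factors (FDR = 0.0909), with DESeq2 (FDR = 0.0765) and without mouse 305 (-0.35, FDR = 0.00864).

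**Figure D4:**
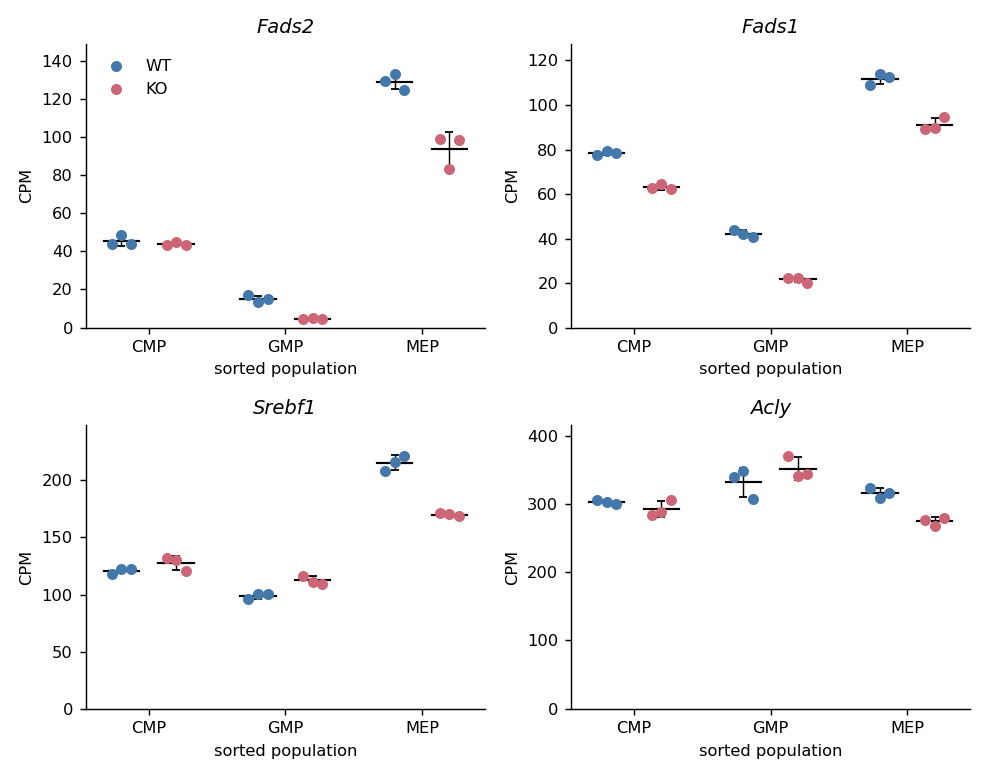
CPM of Fads2, Fads1, Srebf1 and Acly in the 18 precursor libraries, with points for mice, bars for group means and whiskers of 1 SD (n = 3 per group). KO GMPs have the lowest Fads2 (4.45 to 4.82 CPM) and Fads1 (20.2 to 22.5 CPM) of the 6 groups, and Srebf1 is lower in KO than in WT MEPs (169 to 171 against 208 to 222 CPM).

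Fads1 and Fads2 stand head to head on chromosome 19 (10182888 to 10196877, plus strand, and 10062765 to 10101746, minus strand, GRCm38), 81.1 kb apart, and Fads3, a related family member, lies 2.7 kb from Fads2. Of the wider desaturase and elongase list, Fads3 fell most in KO MEPs, from 31.3, 53.9 and 32.0 CPM to 5.802, 7.02 and 6.65 CPM (log2 fold change -2.59, SE 0.22, FDR = 0.000150). In GMPs, where it was low, it fell from 0.804, 0.833 and 0.853 CPM to 0.462, 0.334 and 0.435 CPM (-1.02, SE 0.28, FDR = 0.0250). The difference between the populations was -1.52 (SE 0.30, FDR = 0.00229), the reverse of Fads1 and Fads2, which lost more in GMPs. The 3 genes share few sequences: Fads1 and Fads2 have 0 of their 31-base words in common and Fads2 and Fads3 24 (0.769% of those of Fads2).

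The other genes within 100 kb were looked up after these values had been seen. Rab3il1, which encodes a guanine nucleotide exchange factor for Rab GTPases and adjoins Fads3, went opposite ways in the 2 populations: it had 8.76, 20.4 and 8.32 CPM in WT MEPs and 68.6, 72.2 and 72.1 CPM in KO MEPs (log2 fold change 2.51, FDR = 0.000961), and 2.78, 3.37 and 2.33 CPM in WT GMPs and 0.542, 0.668 and 0.455 CPM in KO GMPs (-2.36, FDR = 0.000181). The difference between these 2 effects was not tested. The ferritin heavy chain gene Fth1 was lower in KO MEPs (-0.53, FDR = 0.00113) and KO GMPs (-0.20, FDR = 0.0885). On the far side, the flap endonuclease gene Fen1 was slightly higher in MEPs (0.23, FDR = 0.00816) and GMPs (0.15, FDR = 0.0925), while Tmem258 was called in neither (-0.10 in MEPs and -0.02 in GMPs). WT mouse 305 stood above the other WT MEPs for Scd1, Fads3 and Rab3il1 alike.

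**Figure D5:**
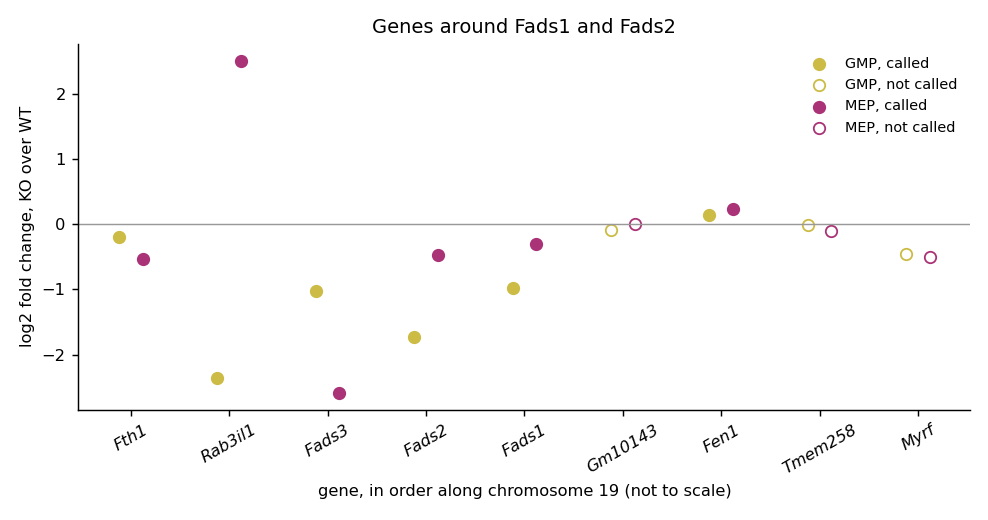
Log2 fold change of KO over WT in GMPs and MEPs for the tested genes within 100 kb of Fads1 and Fads2, in their order on chromosome 19, not to scale. Filled points pass an FDR of 0.1: Fads3, Fads2 and Fads1 are lower in both populations, and Rab3il1 is higher in MEPs (2.51) and lower in GMPs (-2.36).

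Of the genes that steer SREBP-1 or work with it, 14 were listed and 13 tested in each of GMPs and MEPs: 5 rose and 2 fell in KO GMPs, and 1 rose and 4 fell in KO MEPs. That is 53.8% called in GMPs, against 33.9% of all genes, and 38.5% in MEPs, against 29.4%. Srebf2, the sister factor that favors cholesterol genes, rose in both, from 121 to 129 CPM to 152 to 160 CPM in GMPs (0.29, SE 0.05, FDR = 0.00316) and from 116 to 140 CPM to 152 to 161 CPM in MEPs (0.31, SE 0.07, FDR = 0.0141). Scap, the escort that carries SREBPs to the Golgi, rose in GMPs (0.24, SE 0.06, FDR = 0.0141) and fell in MEPs (-0.21, SE 0.05, FDR = 0.0159), with a difference of -0.46 (SE 0.07, FDR = 0.000438), the same signs as Srebf1. Mbtps1, the first protease to cut SREBPs, fell in MEPs (-0.22, SE 0.06, FDR = 0.0262). The median of the list was 0.04 in GMPs and -0.08 in MEPs, against -0.0056 and -0.0020 over all genes tested.

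Among 18 other desaturases and elongation enzymes, 5 rose and 3 fell of 15 tested in KO GMPs, and 1 rose and 5 fell of 14 tested in KO MEPs (medians 0.07 and -0.02). The shares called were 53.3% in GMPs and 42.9% in MEPs, against 33.9% and 29.4% of all genes. Elovl5, which elongates the products of Fads2, fell in MEPs from 43.0 to 49.7 CPM to 17.4 to 20.9 CPM (-1.33, SE 0.09, FDR = 7.29e-05) and rose in GMPs from 183 to 215 CPM to 231 to 256 CPM (0.33, SE 0.08, FDR = 0.0137), a difference of -1.67 (SE 0.11, FDR = 6.57e-07). Hacd2, the dehydratase of the elongation cycle, likewise fell in MEPs (-0.46, SE 0.07, FDR = 0.00296) and rose in GMPs (0.47, SE 0.09, FDR = 0.00567). In KO GMPs, then, Fads1 and Fads2 fell and the elongase that acts between them rose.

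The suppliers of acetyl-CoA and NADPH were 18 genes, of which 9 rose and 4 fell in KO GMPs (median 0.18) and 4 rose and 4 fell in KO MEPs (median -0.02). The shares called were 72.2% and 44.4%, where all genes gave 33.9% and 29.4%. Slc25a1, the carrier that exports citrate from mitochondria for Acly, rose in GMPs (0.31, SE 0.07, FDR = 0.0108) and in MEPs (0.52, SE 0.08, FDR = 0.00223). G6pdx, the first NADPH-yielding step of the pentose phosphate pathway, rose in GMPs from 139 to 146 CPM to 259 to 288 CPM (0.94, SE 0.06, FDR = 1.06e-05) and fell slightly in MEPs (-0.18, SE 0.05, FDR = 0.0494), a difference of -1.12 (SE 0.09, FDR = 2.31e-06). Acss1, the mitochondrial acetyl-CoA synthetase, fell in GMPs (-1.22, SE 0.14, FDR = 0.000312) and stood at 0.02 (SE 0.05, FDR = 0.849) in MEPs.

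Of 20 enzymes that activate fatty acids or build glycerolipids and droplets, 9 rose and 5 fell of 18 tested in GMPs, and 7 rose and 5 fell of 19 tested in MEPs (medians 0.21 and -0.01). This made 77.8% called in GMPs and 63.2% in MEPs, against 33.9% and 29.4% of all genes. Acsl6, an acyl-CoA synthetase, fell in MEPs from 30.4 to 60.1 CPM to 3.36 to 5.07 CPM (-3.43, SE 0.29, FDR = 0.000146). Agpat2, which places an acyl chain on lysophosphatidic acid, fell (-1.47, SE 0.19, FDR = 0.00111) and Agpat3 rose (0.92, SE 0.11, FDR = 0.000777) in MEPs. Dgat2, which completes triglycerides, rose in GMPs (1.37, SE 0.22, FDR = 0.00151), as did the droplet protein Plin3 (0.93, SE 0.08, FDR = 4.60e-05).

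In the cholesterol branch, 5 rose and 2 fell of 23 genes tested in GMPs and 4 rose and 3 fell in MEPs (medians 0.12 and -0.0024). With 30.4% called in each population, the list was near the 33.9% and 29.4% of all genes. Fdps, which makes farnesyl diphosphate, rose in GMPs from 88.2 to 95.3 CPM to 194 to 197 CPM (1.08, SE 0.05, FDR = 4.35e-06), and Dhcr7, the last step to cholesterol in one route, fell in MEPs from 60.5 to 67.2 CPM to 31.8 to 32.2 CPM (-1.01, SE 0.06, FDR = 3.28e-05). Of 21 fatty acid oxidation genes, 5 rose and 0 fell of 19 tested in GMPs (median 0.05, 26.3% called against 33.9% of all genes), with Cpt1a, the gate of mitochondrial oxidation, at 0.43 (SE 0.12, FDR = 0.0294). In MEPs 6 rose and 6 fell of 19 (63.2% called against 29.4%), among them Acaa2 (0.93, SE 0.07, FDR = 7.94e-05) and Decr1, which prepares unsaturated fatty acids for oxidation (-0.68, SE 0.05, FDR = 7.76e-05).

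In LT-HSCs 0 of the 10 members were called by edgeR (background 0.0792%, 18 of 22733 genes) and 0 by DESeq2. At an unadjusted edgeR p under 0.05 stood 2 members (Acaca and Me1), beside 1180 of the 22733 genes tested. The median log2 fold change over all genes was -0.16 here, and 0.07 over the members. Scd1 had 4.98 CPM in WT S245, 0.540 CPM in WT S269, 8.70 CPM in KO S244 and 5.17 CPM in KO S270, so the groups did not overlap only by a narrow margin (log2 fold change 1.33, SE 0.96, FDR = 0.876). Groups that did not overlap made up 36.3% of all genes tested. Without WT S245, the library that stood apart, the log2 fold change was 3.71 for Scd1 and -2.38 for Me1. That fit assumes that the lone WT sample varies like the KO samples. Me1 had 5.16 and 10.1 CPM in WT and 1.69 and 2.13 CPM in KO (-1.996, SE 0.77, FDR = 0.876). Acaca had 44.0 and 43.0 CPM in WT and 29.6 and 14.7 CPM in KO (-0.97, SE 0.37, FDR = 0.876). Without WT S269 its log2 fold change was -1.02, in a fit whose lone WT library is S245. Elovl6 was the fourth member whose groups did not overlap, at 29.97 and 30.1 CPM in WT and 31.8 and 36.9 CPM in KO. The other members overlapped, with Fads1 at 152 and 193 CPM in WT and 151 and 207 CPM in KO and Fads2 at 92.3 and 150 CPM in WT and 115 and 86.8 CPM in KO. The SE was 0.32 for each of these 2, against 0.05 and 0.07 in MEPs.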

How the data were processed

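The authors sorted bone marrow populations, sequenced 100-base read pairs and quantified transcripts with kallisto 0.43.1 against Ensembl release 84 (GRCm38). LT-HSC libraries were made with a SMART-Seq v4 kit and the precursor libraries with a poly-A TruSeq kit. The deposited values are estimated counts and TPM per transcript, 1 table per library. Both were summed per gene with the GENCODE vM21 names, which matched 114200 of 115088 transcripts (99.2%).

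Estimated counts were rounded and tested with edgeR 4.0.16 (quasi-likelihood, TMM, filterByExpr; R 4.3.3), with Benjamini-Hochberg adjustment over all genes tested and an FDR threshold of 0.1. KO was compared with WT within each population. WT populations, and the difference between the KO effects in MEPs and GMPs, were fitted with the mouse as a replicate block, because each mouse number marks 1 animal that gave all 3 populations. In the KO against WT fits within a population, p-values measure the spread between mice. In the fits with the mouse as a block they measure the spread left once each mouse's own level is removed. SE is that of the log2 fold change, derived from the F statistic. The scripts were tested on simulated data. DESeq2 1.42.0, other size factors, no filter, a length offset, blocks and single omissions were the alternatives.

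The members and gene lists were chosen with earlier results of these data known. Named were all members and, from each other list and comparison, at most the 3 genes with the largest absolute change past the threshold, without overlap and with a mean above 1 TPM. Their values in the other population are given beside them. For likeness to Scd1 the 5 genes with the highest r were named, among genes with a mean above 1 TPM. Arid1a served as the check of the labels. Promoter windows came from RefSeq (GRCm38.p6), which matched 7 of 10 members.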

Additional observations from a re-analysis of the deposited data

Results flagged for a closer look

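For 4 of the 10 members the KO effect differed between MEPs and GMPs in the joint edgeR fit of the 18 precursor libraries, each at an FDR under 0.1. The log2 fold change in MEPs less that in GMPs was 1.25 (SE 0.13, FDR = 1.31e-05) for Fads2 and 0.67 (SE 0.08, FDR = 4.20e-05) for Fads1, both of which fell more in GMPs. It was -0.52 (SE 0.06, FDR = 4.03e-05) for Srebf1, which fell in the 3 KO MEP libraries and was higher in the 3 KO GMP libraries, and -0.29 (SE 0.07, FDR = 0.0130) for Acly, which fell in MEPs and overlapped in GMPs.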

How the results depend on the processing

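No member turned its direction past the threshold under any alternative run. The direction of single genes outside the members was not checked under the alternatives. In LT-HSCs the 18 genes called became 286 with no filter on low counts, 204 with DESeq2 and 115 with a replicate block of column pairs, and 50 to 2516 when 1 library was left out, with 0 to 2 members called (2 without WT S245, 1 without WT S269). In CMPs the 4 members past the threshold became 2 to 4, with 2 without WT mouse 300, KO mouse 301 or WT mouse 309. In MEPs the 4638 genes called became 3040 (without KO mouse 301) to 5357, and the 8 members 5 (without KO mouse 304 or 308) to 8. Between WT GMPs and CMPs the 7913 genes called became 5253 (without mouse 309) to 8105. The cause of these shifts was not tested, beyond the smaller number of samples where a library was left out. WT and KO libraries share no replicate number in the labels. The replicate block of column pairs, taken from the order of columns in the study's tables, left the members called at 0, 4, 3 and 8 in LT-HSCs, CMPs, GMPs and MEPs. Without the replicate block of the mouse, 9, 6 and 9 members were called in GMPs against CMPs, MEPs against CMPs and GMPs against MEPs, and 4 in the difference between KO effects. In LT-HSCs the median SE was 0.39 for genes above 1 TPM, against 0.08 in MEPs, which limits what could be detected there.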
